A study of Mus musculus with 27 samples.

Results

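The 10 genes described here mark blood vessel endothelium, the cell layer that lines vessels: Pecam1, Cdh5, Kdr, Flt1, Tek, Tie1, Eng, Emcn, Vwf and Plvap. They were chosen by name as rows of the gene count tables, and all 10 of 10 were found among 54752 genes. Their levels were read in 15 RNA-seq libraries of CT26 tumors, 5 in each of 3 groups. CT26 is a mouse colon carcinoma line, whose cells received a guide RNA by retrovirus and were then grown subcutaneously in BALB/c mice.

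The groups were tumors from CT26 cells with Mettl3 knocked out (Mettl3 KO), with Mettl14 knocked out (Mettl14 KO) and with a control guide. Mettl3 and Mettl14 are partners in the enzyme that writes m6A, a methyl mark on RNA. The series asked how gene expression differs in such tumors under anti-PD-1, an antibody that unblocks T cells. Per the labels' protocols, the mice received 200 µg of antibody (10 mg/kg) on repeated days, 11 being the first and 23 the last. Anti-CTLA-4 and IgG are listed there too, and the series design alone links the samples to anti-PD-1. All 3 groups share the line, the host strain and, by that design, the antibody. The sources used here do not say whether a group came from 1 clone or a pool of edited cells, or give the age or sex of the mice. The guide RNA was delivered to the cultured CT26 cells, whereas tumor vessels grow in from the mouse, so the endothelial cells are host cells without an edit. The labels do not tie libraries to separate mice, so the spread behind each p-value is that between libraries, which may be technical.

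In a growing tumor, vascular endothelial growth factor (VEGF) binds the receptor Kdr and drives endothelial cells to divide and sprout, while Flt1 binds the same ligands and mostly holds signalling back. Tek (Tie2) and its partner Tie1 answer to angiopoietins and set how stable a vessel is. The cells are held together at their borders by Cdh5 and Pecam1, and leukocytes cross these borders to reach the tumor. Endothelial cells also store von Willebrand factor (Vwf), the clotting protein, and differ in Plvap, Emcn and Eng by vessel type and state.

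No member passed the test in any of the 3 comparisons of groups. In simulated counts of the comparisons with control, the test called 15% to 19% of genes changed by 1 on the log2 scale. Cdh5 had the lowest fold change in both knockouts and Vwf the highest in Mettl3 KO, and whether either was called depended on which control libraries, tool and model were used. From library to library, 9 of the genes correlated positively with each other, as many other genes did with them, and Vwf correlated negatively with all 9.

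Reads counted on genes numbered 4354273 to 9332032 in Mettl3 KO libraries, 6452364 to 17022057 in Mettl14 KO libraries and 5520340 to 20978633 in control libraries. Reads aligned outside annotated genes took 60.2% to 78.0%, 53.6% to 65.9% and 44.3% to 78.6% of uniquely aligned reads in these groups, in the same order. Control replicate 1 had the 78.6%, and the other 4 control libraries lay at 44.3% to 53.8%, so results are given with and without it. Mettl3 averaged 13.8 ± 1.45 CPM in Mettl3 KO, against 19.5 ± 3.59 CPM in control tumors (SD, n = 5 each; log2 fold change -0.56, adjusted p = 0.0545), and Mettl14 averaged 61.6 ± 12.4 CPM in Mettl14 KO, against 69.5 ± 11.7 CPM in control tumors (-0.21, adjusted p = 0.735). CPM give a gene's reads relative to all reads counted on genes, with library sizes scaled by the trimmed mean of M-values (TMM). Fold changes are log2 values from edgeR's quasi-likelihood test with Benjamini-Hochberg adjustment over all genes tested, at a threshold of 0.05.

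All 10 genes were read in every library, with 29 (Vwf) to 1859 (Pecam1) reads, and all passed the filter on low counts in each comparison. A further 20 blood endothelial genes on a separate list also passed it, among them Cd34, a surface sialomucin (441 ± 166 CPM in Mettl3 KO and 491 ± 78.0 CPM in Mettl14 KO, against 490.0 ± 83.0 CPM in control tumors). In bulk tumor RNA, fewer endothelial cells, less RNA per endothelial cell and expression by other cells cannot be told apart. The other cells include the edited CT26 cells, and this limit holds for the listed genes as well as for the 10. Summed over the 10 genes, the level was 317 ± 44.6 CPM in Mettl3 KO and 356 ± 57.5 CPM in Mettl14 KO, against 357 ± 65.6 CPM in control tumors (SD, n = 5 each). The lowest sum of all, 256 CPM, was that of control replicate 1, and the next lowest, 258 CPM, that of Mettl3 KO replicate 4; these were the libraries with most reads outside genes.

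Per kilobase of exon, the order of mean levels over the 15 libraries began with Cdh5 at 15.7 ± 5.32 CPM per kb, Pecam1 at 12.8 ± 3.01 and Plvap at 10.6 ± 3.05. Eng at 5.07 ± 1.39, Flt1 at 5.03 ± 0.587, Kdr at 4.21 ± 0.839 and Tie1 at 3.44 ± 0.801 CPM per kb followed. Emcn at 2.44 ± 0.643, Tek at 1.64 ± 0.304 and Vwf at 0.770 ± 0.419 CPM per kb came last. The mean ± SD ranges of neighbours in this order overlapped except between Plvap and Eng and between Tek and Vwf. Flt1 was the steadiest, its highest library 1.49 times its lowest, and Vwf the most variable, at 10.5 times.

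**Figure D1:**
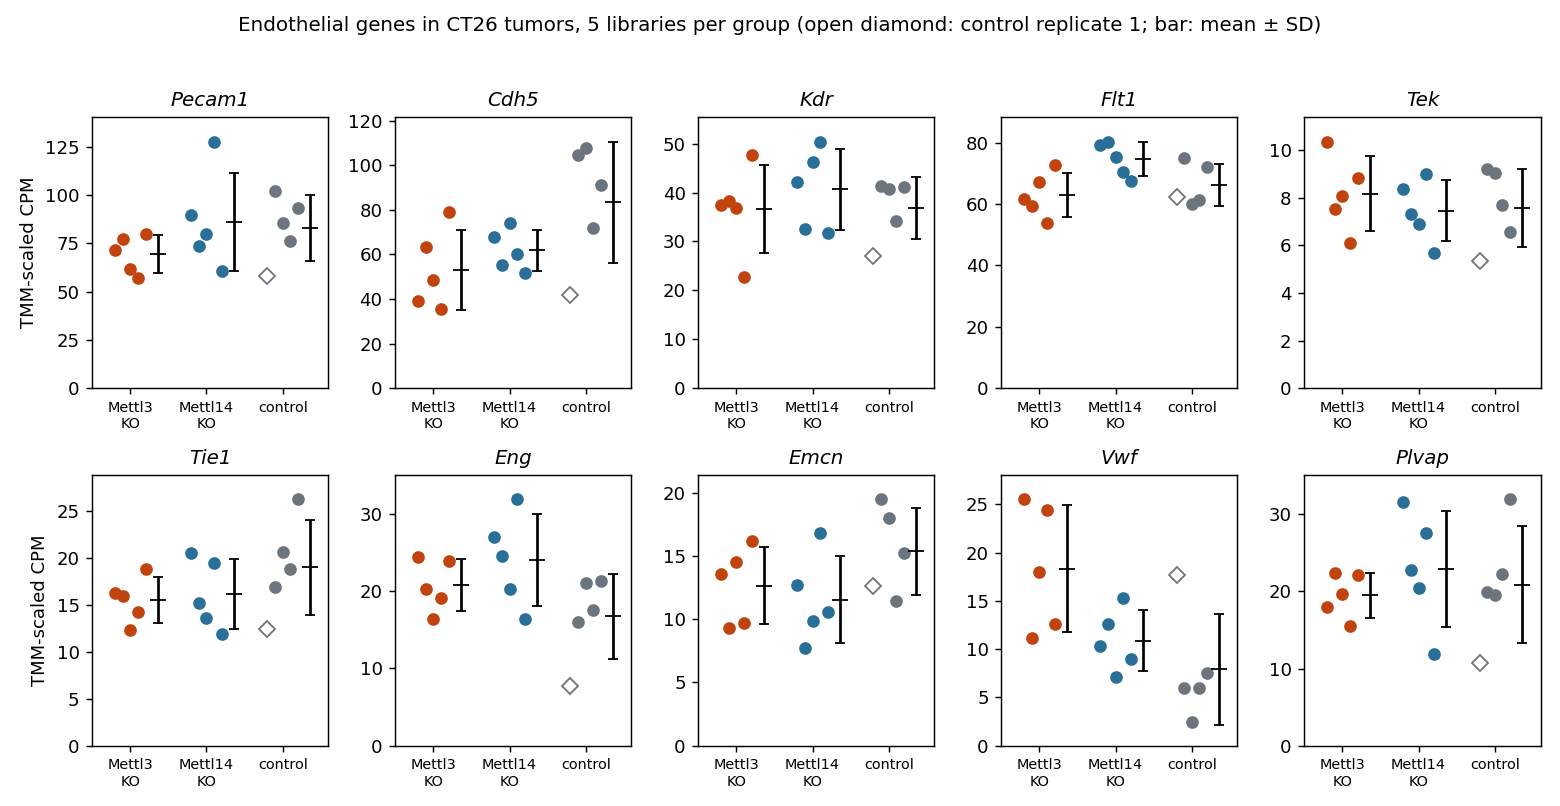
TMM-scaled CPM of the 10 endothelial genes, 1 point per library, in Mettl3 KO, Mettl14 KO and control tumors (n = 5 each), with the mean and SD as a bar beside the points. The groups overlap for every gene, and the open diamond, control replicate 1, is the lowest control library for 7 genes and the highest for Vwf (17.7 CPM).

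The junction genes came first in level. Cdh5 (VE-cadherin; chr8:104101625-104144511, plus strand, mm10) is the cadherin of endothelial adherens junctions. Its level in Mettl3 KO replicates 1 to 5 was 39.3, 63.5, 48.3, 35.6 and 78.9 CPM. In Mettl14 KO replicates 1 to 5 it was 67.9, 55.3, 74.2, 60.3 and 51.8 CPM, and in control replicates 1 to 5 it was 41.9, 104, 108, 71.9 and 91.2 CPM. Every knockout library lay below the control mean of 83.4 CPM, and control replicate 1 lay among the lowest Mettl3 KO libraries, so the groups overlapped. The log2 fold change was -0.72 (SE 0.26, 95% interval -1.28 to -0.16; adjusted p = 0.0894) in Mettl3 KO and -0.46 (SE 0.21, -0.92 to -0.01; adjusted p = 0.435) in Mettl14 KO, neither past the threshold. Pecam1 (CD31; chr11:106654217-106750628, minus strand), an adhesion molecule of endothelial borders that platelets and leukocytes also carry, had 71.5, 77.2, 61.9, 57.0 and 80.1 CPM in Mettl3 KO libraries. It had 89.8, 73.8, 79.9, 128 and 60.6 CPM in Mettl14 KO libraries, against 58.2, 102, 85.5, 76.1 and 93.6 CPM in control libraries. The 5 Mettl3 KO libraries all lay below the control mean, yet the log2 fold change of -0.32 (SE 0.16) did not pass (adjusted p = 0.181), and it turned to 0.18 with cyclic loess scaling. In Mettl14 KO the Pecam1 fold change was 0.01 (SE 0.18, adjusted p = 0.997).

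Among the receptors, Kdr (VEGF receptor 2) had 37.5, 38.3, 36.9, 22.7 and 47.8 CPM in Mettl3 KO libraries, 42.2, 32.6, 46.2, 50.4 and 31.8 CPM in Mettl14 KO libraries, and 26.9, 41.3, 40.7, 34.2 and 41.2 CPM in control libraries. Its group means, 36.6, 40.6 and 36.9 CPM in that order, differed by less than 1 SD of any group. Flt1 (VEGF receptor 1) had 61.6, 59.5, 67.1, 53.7 and 72.6 CPM in Mettl3 KO libraries, 79.3, 80.3, 75.2, 70.5 and 67.6 CPM in Mettl14 KO libraries, and 62.3, 74.9, 60.1, 61.4 and 72.2 CPM in control libraries. All 5 Mettl14 KO libraries lay above the control mean of 66.2 CPM, with a log2 fold change of 0.13 (95% interval -0.12 to 0.38; adjusted p = 0.777). The 95% intervals of the Mettl3 KO fold changes reached from -0.47 to 0.32 for Kdr and from -0.42 to 0.16 for Flt1. Differences within those bounds remain possible with 5 libraries a group. The intervals are not limits of detection, since Cdh5 at -0.72 in Mettl3 KO was not called either.

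The angiopoietin receptors were less abundant. Tek ranged from 6.10 to 10.3 CPM in Mettl3 KO, from 5.69 to 8.99 CPM in Mettl14 KO, and from 5.35 to 9.20 CPM in control tumors, on 32 to 142 reads per library. Tie1 ranged from 12.3 to 18.9 CPM, from 11.9 to 20.6 CPM and from 12.5 to 26.3 CPM in the same groups. Their log2 fold changes were 0.06 (SE 0.22, adjusted p = 0.837) and -0.37 (SE 0.20, adjusted p = 0.216) in Mettl3 KO. In Mettl14 KO they were -0.06 (SE 0.19, adjusted p = 0.988) and -0.28 (SE 0.20, adjusted p = 0.677). Eng (endoglin), a coreceptor for TGF-beta family ligands in dividing endothelium, had 24.4, 20.3, 16.4, 19.1 and 23.9 CPM in Mettl3 KO libraries. It had 27.0, 24.6, 20.3, 31.9 and 16.5 CPM in Mettl14 KO libraries, against 7.79, 16.1, 21.0, 17.5 and 21.4 CPM in control libraries. In each knockout 4 of 5 libraries lay above the control mean of 16.7 CPM. The fold changes of 0.24 (SE 0.24, adjusted p = 0.440) in Mettl3 KO and 0.48 (SE 0.24, adjusted p = 0.481) in Mettl14 KO did not pass. Without control replicate 1 the control mean of Eng was 19.0 CPM. The fold changes were then 0.28 (adjusted p = 0.189) in Mettl3 KO and 0.33 (adjusted p = 0.231) in Mettl14 KO. The exons of Eng overlap those of Fpgs, on the opposite strand, by 61 bases, and the strand setting of the counting is not given in the sources used here, so reads there cannot be assigned with certainty.

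Of the surface and storage markers, Emcn (endomucin), a sialomucin of venous and capillary endothelium, had 13.6, 9.33, 14.5, 9.72 and 16.2 CPM in Mettl3 KO libraries. It had 12.7, 7.74, 9.82, 16.8 and 10.6 CPM in Mettl14 KO libraries, against 12.7, 19.5, 18.03, 11.4 and 15.2 CPM in control libraries. In each knockout 4 of 5 libraries lay below the control mean of 15.4 CPM, with fold changes of -0.34 (SE 0.21, adjusted p = 0.263) in Mettl3 KO and -0.45 (SE 0.21, adjusted p = 0.439) in Mettl14 KO. Plvap, which forms the diaphragms of fenestrated and caveolar endothelium, spanned 15.4 to 22.3 CPM in Mettl3 KO, 11.9 to 31.6 CPM in Mettl14 KO, and 10.7 to 31.9 CPM in control tumors. Its fold changes were -0.17 (SE 0.23, adjusted p = 0.560) and 0.09 (SE 0.27, adjusted p = 0.987) in Mettl3 KO and Mettl14 KO.

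Vwf (chr6:125546774-125686679, plus strand, mm10) encodes the multimeric clotting glycoprotein that endothelial cells keep in Weibel-Palade bodies and that megakaryocytes pack into platelets. It had 25.5, 11.1, 18.01, 24.4 and 12.6 CPM in Mettl3 KO libraries, on 98 to 128 reads. In Mettl14 KO libraries it had 10.4, 12.6, 7.17, 15.3 and 8.94 CPM, and in control libraries 17.7, 6.002, 2.42, 5.96 and 7.50 CPM. All 5 Mettl3 KO libraries lay above the control mean of 7.91 CPM, and control replicate 1 was the only control library that reached them. The log2 fold change in Mettl3 KO was 1.182 (SE 0.46, 95% interval 0.17 to 2.19; unadjusted p = 0.0251, adjusted p = 0.109), and in Mettl14 KO it was 0.41 (SE 0.44, adjusted p = 0.858). All 5 Mettl3 KO libraries also lay above the Mettl14 KO mean of 10.9 CPM, and the difference of the knockouts, 0.74 (SE 0.39, 95% interval -0.08 to 1.55), had adjusted p = 0.349. Markers of platelets and megakaryocytes summed to 44.1 ± 5.07 CPM in Mettl3 KO and 59.6 ± 15.4 CPM in Mettl14 KO, against 43.6 ± 9.75 CPM in control tumors. Of their 8 genes 5 could be tested in Mettl3 KO against control and edgeR and DESeq2 called 0 (1 with an unadjusted p under 0.05). Pf4 (platelet factor 4) had -1.06 (adjusted p = 0.0951) and Itgb3, an integrin chain of platelets and other cells, -0.07 (adjusted p = 0.738). Above 0 were Gp1ba (0.91, adjusted p = 0.201), Itga2b (0.39, adjusted p = 0.353) and Ppbp (0.35, adjusted p = 0.564). The list median was 0.35, against -0.14 over all genes. Gp1bb averaged under 0.1 CPM in each group. Itga2b, Gp1ba and Treml1 were called higher in Mettl3 KO without control replicate 1, 3 of 6 platelet genes tested, when 36.2% of all genes were called higher. The part of platelets in the Vwf value was not tested.

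**Figure D2:**
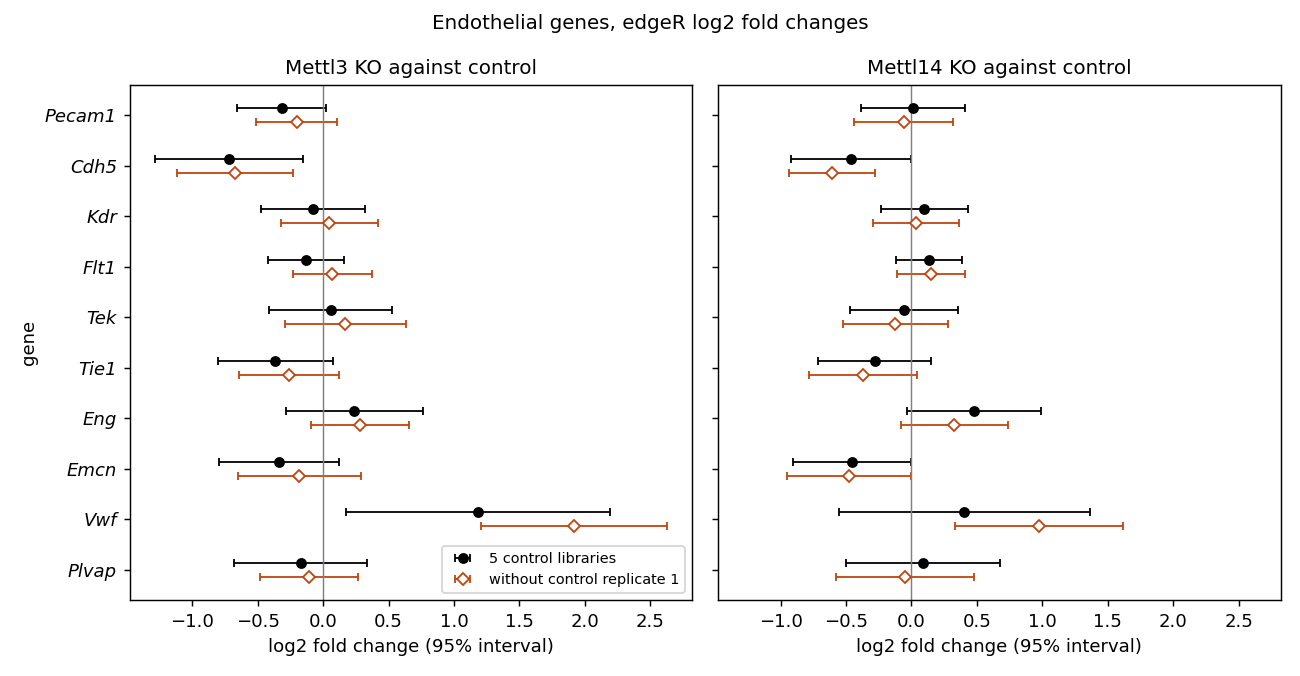
Log2 fold changes of the 10 endothelial genes (x axis, with 95% intervals) in Mettl3 KO against control and Mettl14 KO against control, from edgeR fits with 5 control libraries (filled) and without control replicate 1 (open). In Mettl3 KO the interval of Vwf, centred on 1.182 with all controls, moves to 1.91 without that library, while that of Cdh5 stays near -0.7.

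In Mettl3 KO against control, 0 of the 10 genes were called by edgeR, 2 had an unadjusted p under 0.05 (Cdh5 and Vwf), and DESeq2 called 1 (Vwf, 1.26, adjusted p = 0.0399). Over all genes tested edgeR called 1.24% (0.406% higher and 0.835% lower) and DESeq2 12.6%. That split of 87 higher and 179 lower genes was 72 and 28 with RLE scaling, 300 and 91 with cyclic loess and 106 and 16 with library totals. The median fold change of the 10 was -0.15, against -0.14 over all genes tested. In Mettl14 KO against control, 0 of 10 were called, as were 0% of all genes; 2 had an unadjusted p under 0.05 (Cdh5, 0.0475, and Emcn, 0.0490), and DESeq2 called 0 of 10 and 2.34% of all genes. Their median was 0.05, against -0.09 over all genes. In Mettl3 KO against Mettl14 KO, fitted on all 15 libraries, 0 of 10 were called (0% of all genes), 0 had an unadjusted p under 0.05, and DESeq2 called 0 of 10 and 0.277% of all genes. There the fold changes ran from -0.31 for Pecam1 to 0.74 for Vwf, with a median of -0.18 (-0.01 over all genes). In the authors' deposited table, 0 of the 10 genes had an adjusted p under 0.05 in either knockout. Its lowest values there were 0.109 for Vwf (log2 fold change 1.12) and 0.116 for Cdh5 (-0.59), both in Mettl3 KO.

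Calls of members changed with the control libraries kept. Without control replicate 1, Cdh5 fell by 0.67 on the log2 scale in Mettl3 KO (SE 0.21, adjusted p = 0.0143, below the control mean in 5 of 5 libraries) and by 0.61 in Mettl14 KO (SE 0.15, adjusted p = 0.0461, 5 of 5 libraries). Vwf rose by 1.91 in Mettl3 KO (SE 0.33, adjusted p = 0.00165, 5 of 5 libraries), and in Mettl14 KO its value of 0.98 (SE 0.30) had adjusted p = 0.0610. In Mettl3 KO that made 2 of 10 members called, 1 higher and 1 lower, when 51.6% of all genes were called, 36.2% higher and 15.4% lower, and the median of the members was -0.03. In Mettl14 KO it made 1 of 10, lower, when 4.86% of all genes were called, 2.00% lower and 2.86% higher. The remaining 4 control libraries averaged 93.8 ± 16.2 CPM for Cdh5 and 5.47 ± 2.16 CPM for Vwf (SD, n = 4). Cdh5 kept a negative sign and Vwf a positive one under every alternative run in both knockouts, with Cdh5 between -0.88 and -0.15 and Vwf between 0.45 and 1.91 in Mettl3 KO. The median of all genes in Mettl3 KO was -0.14 with TMM scaling, -0.05 with RLE, -0.02 with cyclic loess and 0.02 with library totals. Relative to that median, Cdh5 in Mettl3 KO was at -0.58, -0.58, -0.21 and -0.53 and Vwf at 1.32, 1.32, 1.51 and 1.22, in that order of scalings.

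The share of reads outside genes moved with both genes. It averaged 68.3% ± 7.16 in Mettl3 KO, 58.5% ± 5.25 in Mettl14 KO and 54.8% ± 13.9 in control libraries (SD, n = 5 each). The 4 libraries with the largest shares, Mettl3 KO replicates 1, 3 and 4 and control replicate 1, had the 4 lowest Cdh5 levels and the 4 highest Vwf levels of the 15. With that share as a covariate, the Cdh5 fold change was -0.15 in Mettl3 KO and -0.29 in Mettl14 KO, and that of Vwf 0.45 and 0.41, none past the threshold. In the same fits Eng moved away from 0, to 0.74 (adjusted p = 0.214) in Mettl3 KO and 0.68 (adjusted p = 0.112) in Mettl14 KO. Its values without the covariate were 0.24 and 0.48. In a fit of all 15 libraries with group in the model, chosen after the data were seen, Cdh5 fell by 0.42 on the log2 scale per 10 percentage points of the share (SE 0.07, adjusted p = 1.56e-05) and Vwf rose by 0.53 (SE 0.11, adjusted p = 0.000501). Plvap (-0.37), Eng (-0.34), Kdr (-0.27), Tie1 (-0.26) and Pecam1 (-0.23) fell as well, while Flt1 (-0.05), Tek (-0.17) and Emcn (-0.18) did not pass. That was 7 of 10 called, 6 lower and 1 higher, when the same test called 68.1% of all genes, 29.1% lower and 38.9% higher, with a median slope of 0.03. Without control replicate 1 only Cdh5 (-0.48) and Kdr (-0.42) were called, 2 of 10, both lower, when 43.4% of all genes were called, 13.7% lower and 29.7% higher. The share and the knockout are partly confounded, since 4 of 5 control libraries lie below every Mettl3 KO library, so the part of each in the Cdh5 and Vwf values cannot be told apart.

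**Figure D3:**
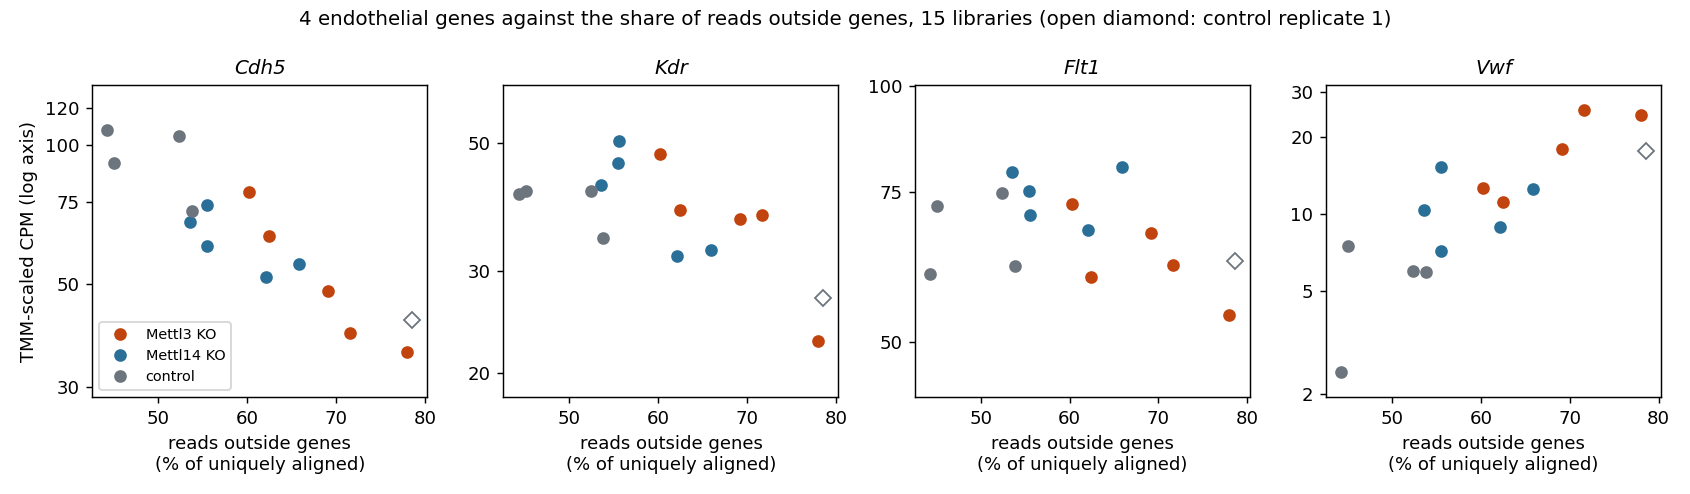
TMM-scaled CPM (log axis) of Cdh5, Kdr, Flt1 and Vwf against the percentage of uniquely aligned reads that fell outside genes, 1 point per library, coloured by group; the open diamond is control replicate 1. Cdh5 is lower and Vwf higher in libraries with a larger share, over all 15, whereas the Flt1 slope of -0.05 per 10 points did not pass.

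The members were next compared with each other from library to library, after the mean of each group was taken off the log2 CPM. The points are 15 libraries that share depth and composition effects, so the values are given as a description. Over the 45 pairs the median Pearson r was 0.56. Tie1 and Eng had the highest r, 0.91, followed by Tie1 and Plvap (0.87), Pecam1 and Kdr (0.82), Eng and Plvap (0.82), and Cdh5 and Kdr (0.80). Over the 36 pairs without Vwf, r ran from 0.23 (Flt1 and Eng) to 0.91, with a median of 0.61. Vwf had a negative r with all 9 other members, from -0.07 with Flt1 to -0.82 with Cdh5. Pecam1 was the member closest to the mean of the other 9 (r = 0.91), ahead of Tie1 (0.80), Plvap (0.79), Kdr (0.78), Eng (0.77) and Tek (0.72), with Emcn (0.58), Flt1 (0.52) and Cdh5 (0.51) further off and Vwf at -0.46.

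**Figure D4:**
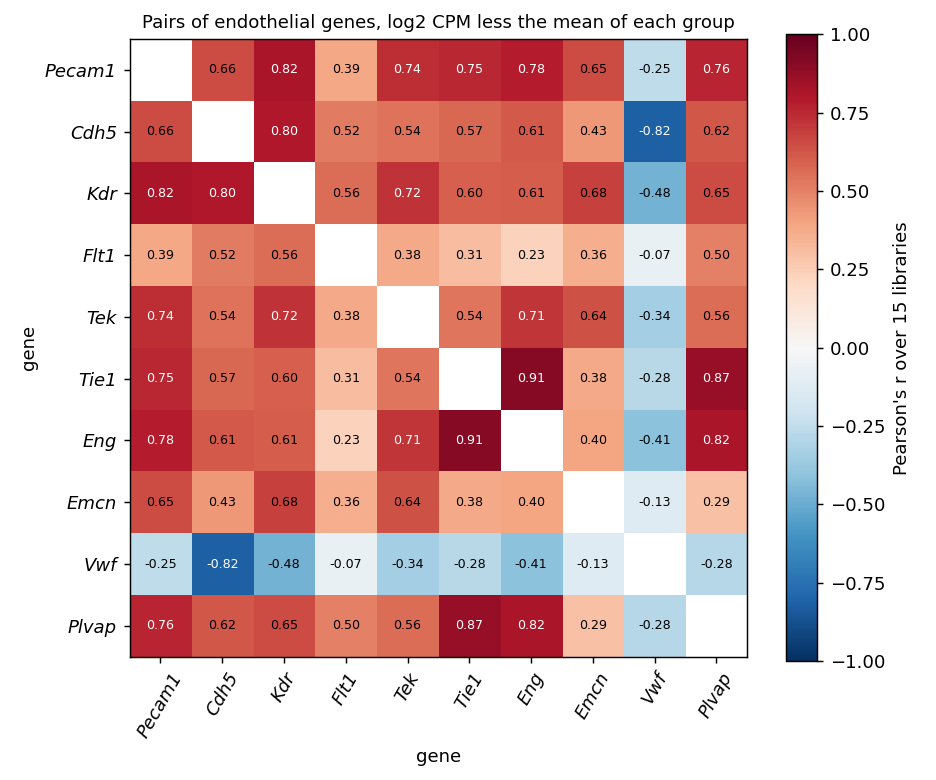
Pearson's r between each pair of the 10 endothelial genes over 15 libraries, on log2 CPM with the mean of each group removed; the colour scale runs from -1 to 1. The Vwf row and column are negative throughout, down to -0.82 with Cdh5, and all other pairs are positive.

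A high r with the members was common among genes in general. The median r of all 12605 genes with a mean of at least 5 CPM with the members' mean was 0.43, and that of 17 other blood endothelial genes was 0.52. The 10 genes most like the members by this measure, over 15 libraries, were Chmp4b (0.95), Katna1 (0.93), Ube2f (0.93), Ncoa4 (0.92), Actr3 (0.92), Ddx58 (0.92), Wdr37 (0.91), Nsd1 (0.91), Max (0.91) and Grb2 (0.90). None of these 10 is on an endothelial list used here.

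Promoters are shown for 4 members, the pair that moved most alike (Tie1 and Eng) and the 2 VEGF receptors (Kdr and Flt1). They are the 250 bases before the RefSeq start on GRCm38.p6, 5′ to 3′ on the gene's strand, with AGGAAG or its reverse complement CTTCCT in capitals. AGGAAG holds GGAA, the core that ETS family factors bind; members of that family such as Erg and Fli1 are known regulators of endothelial genes.
Tie1: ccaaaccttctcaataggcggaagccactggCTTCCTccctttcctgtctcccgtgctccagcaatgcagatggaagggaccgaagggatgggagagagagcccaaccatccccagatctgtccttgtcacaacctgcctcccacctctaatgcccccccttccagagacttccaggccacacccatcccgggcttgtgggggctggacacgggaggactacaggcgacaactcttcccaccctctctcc
Eng: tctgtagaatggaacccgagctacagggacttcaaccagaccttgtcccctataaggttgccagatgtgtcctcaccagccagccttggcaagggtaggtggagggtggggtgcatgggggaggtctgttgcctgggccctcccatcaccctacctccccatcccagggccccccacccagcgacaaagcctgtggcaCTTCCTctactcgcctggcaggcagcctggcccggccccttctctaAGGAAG
Kdr: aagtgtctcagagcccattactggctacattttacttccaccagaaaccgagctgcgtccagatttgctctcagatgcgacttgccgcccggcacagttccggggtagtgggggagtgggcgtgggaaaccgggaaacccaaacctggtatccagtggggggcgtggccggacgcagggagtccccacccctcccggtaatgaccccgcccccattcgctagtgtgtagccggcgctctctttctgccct
Flt1: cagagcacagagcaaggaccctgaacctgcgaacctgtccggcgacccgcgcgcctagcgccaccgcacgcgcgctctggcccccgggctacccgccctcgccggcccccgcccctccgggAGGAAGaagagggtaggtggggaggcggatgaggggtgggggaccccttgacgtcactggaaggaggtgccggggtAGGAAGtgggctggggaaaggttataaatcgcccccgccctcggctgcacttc
The windows are chr4:118489850-118490099 (minus strand) for Tie1, chr2:32646345-32646594 (plus) for Eng, chr5:75978456-75978705 (minus) for Kdr and chr5:147726012-147726261 (minus) for Flt1. In GENCODE M21 Tie1 spans chr4:118471191-118490061, so most of its window lies inside the gene as annotated there. The Kdr window overlaps its GENCODE gene, which ends at 75978458, by a few bases. On either strand AGGAAG was found in the windows of 4 of the 6 members in the RefSeq table, starting 219 bases before the start in Tie1, 52 and 6 in Eng, 129 and 53 in Flt1, and 174 and 93 in Emcn. Kdr and Tek had 0 matches in this window. The hexamer was present in 29.2% of 27025 promoter windows of the same length, and the shorter GGAA in 6 of 6 members and 93.4% of all windows. A match is a string of letters here and says nothing about binding.

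Genes that act with the members were read from lists of the same pathways, and counts on the lists are edgeR calls unless DESeq2 is named. On the ligand side, 6 of 7 VEGF ligand and coreceptor genes could be tested in Mettl3 KO and 7 of 7 in Mettl14 KO, and 0 were called in either. Vegfa, the main VEGF ligand, had 83.8 ± 9.88 CPM in Mettl3 KO and 139 ± 9.38 CPM in Mettl14 KO, against 115 ± 24.6 CPM in control tumors. Its log2 fold change was -0.51 (SE 0.18, adjusted p = 0.0886) in Mettl3 KO and 0.24 (SE 0.15, adjusted p = 0.612) in Mettl14 KO, and the difference of the knockouts was -0.73 (SE 0.16, adjusted p = 0.226). Nrp2, a VEGF and semaphorin coreceptor, had -0.33 (adjusted p = 0.183) and 0.22 (adjusted p = 0.619). The list medians were -0.36 in Mettl3 KO and 0.22 in Mettl14 KO, against -0.14 and -0.09 over all genes.

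Of the 4 angiopoietin genes with VE-PTP, 0 were called, Angpt2, the angiopoietin that sprouting endothelium releases, having -0.72 (SE 0.20, adjusted p = 0.0559) in Mettl3 KO and 0.03 (adjusted p = 0.993) in Mettl14 KO. Ptprb (VE-PTP), the phosphatase that acts on Tek and Cdh5, had -0.28 (adjusted p = 0.243) and -0.33 (adjusted p = 0.445). The list medians were 0.09 and 0.03. Among 12 Notch and tip cell genes 0 were called, with medians of -0.19 and -0.04. Esm1, which VEGF induces in tip cells, had 226 ± 57.2 CPM in Mettl3 KO and 357 ± 21.2 CPM in Mettl14 KO, against 373 ± 79.6 CPM in control tumors. Its fold changes were -0.78 (SE 0.20, adjusted p = 0.0524) and -0.10 (SE 0.14, adjusted p = 0.936). Notch1, a receptor that limits sprouting, had 0.31 (adjusted p = 0.274) and 0.60 (adjusted p = 0.346).

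The 12 endothelial transcription factors had 0 calls and medians of -0.07 and -0.02 in Mettl3 KO and Mettl14 KO. Bcl6b, an endothelial zinc finger repressor, had -0.27 (adjusted p = 0.423) and 0.08 (adjusted p = 0.984), and Ets1, an ETS factor also made by lymphocytes, -0.12 (adjusted p = 0.586) and 0.21 (adjusted p = 0.812). The 20 other blood endothelial genes had 0 calls and medians of -0.15 and -0.06, with Cd34 at -0.23 (adjusted p = 0.458) and -0.03 (adjusted p = 0.992), and Cd93, a C-type lectin of angiogenic endothelium, at -0.25 (adjusted p = 0.313) and 0.08 (adjusted p = 0.956). Of the 6 genes by which endothelium holds leukocytes, 4 could be tested in each knockout and 0 were called (medians -0.13 and 0.18). Vcam1 had 307 ± 29.2 CPM in Mettl3 KO and 307 ± 63.6 CPM in Mettl14 KO, against 292 ± 75.3 CPM in control tumors, with fold changes of 0.02 and 0.03. Sele (E-selectin) had -0.29 (adjusted p = 0.507) and -0.25 (adjusted p = 0.851). Selp had -0.36 and 0.32. Icam1 had the largest fold change of the 4 in both knockouts and was higher in each. It averaged 24.5 CPM in Mettl3 KO and 25.6 CPM in Mettl14 KO, against 9.48 CPM in control tumors. Its fold changes were 1.32 (adjusted p = 0.0524) and 1.37 (adjusted p = 0.255).

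Several of these zeros held only by edgeR with all libraries. In Mettl3 KO, DESeq2 called 1 gene each among the VEGF, angiopoietin, Notch and leukocyte adhesion genes, and 1 of each of these lists had an unadjusted edgeR p under 0.05. For the transcription factors both counts were 0, and for the other blood endothelial genes they were 0 and 1. In Mettl14 KO, DESeq2 called 2 other blood endothelial genes and 1 leukocyte adhesion gene and 0 on the other 4 lists, and 6, 1, 0, 1, 0 and 2 genes of the blood endothelial, adhesion, transcription factor, VEGF, angiopoietin and Notch lists had an unadjusted p under 0.05. Over all genes tested, DESeq2 called 12.6% in Mettl3 KO and 2.34% in Mettl14 KO.

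Without control replicate 1, calls in Mettl3 KO were 3 higher (Acvrl1, Icam2 and Tspan18) and 1 lower (Adgrl4) of the 20 other blood endothelial genes, 1 higher (Hhex) of the 12 transcription factors, 2 higher (Angpt1 and Angpt4) and 1 lower (Angpt2) of the 4 angiopoietin genes, 2 higher (Jag1 and Hey2) and 1 lower (Esm1) of the 12 Notch and tip cell genes, and 1 higher (Icam1) of the 4 adhesion genes tested. No VEGF gene was called there, and in Mettl14 KO 0 genes of these 6 lists were. In the same fits 36.2% of all genes were called higher and 15.4% lower in Mettl3 KO, and 2.86% higher and 2.00% lower in Mettl14 KO. Both Angpt2 (-0.62, adjusted p = 0.0105) and Esm1 (-0.64, adjusted p = 0.0152) fell in Mettl3 KO in that fit. In Mettl14 KO their values without it, -0.07 and -0.15, did not pass. Angpt4 and Hey2 averaged 2.29 and 2.76 CPM in Mettl3 KO, against 1.38 and 1.37 CPM in control tumors.

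**Figure D5:**
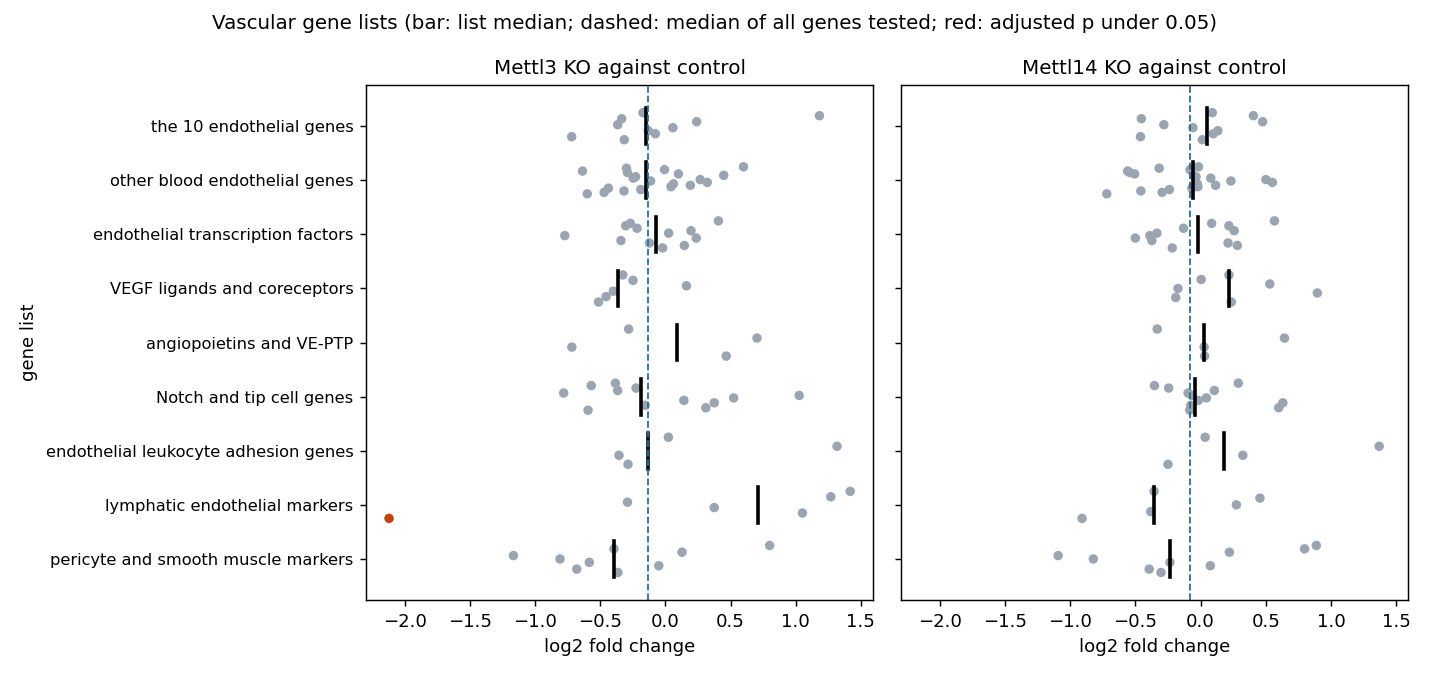
Log2 fold changes of the genes of 9 vascular lists (rows, 1 point per gene tested) in Mettl3 KO against control and Mettl14 KO against control; bars are list medians and the dashed line is the median of all genes tested (-0.14 and -0.09). Lyve1, in the lymphatic list of the Mettl3 KO panel, is the single called gene, at -2.12.

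Cells that lie beside endothelium, or share its genes, were read from marker lists. Lyve1, a hyaluronan receptor of lymphatic endothelium and some macrophages, fell by 2.12 on the log2 scale in Mettl3 KO (SE 0.39, adjusted p = 0.0368), with 7.49 ± 4.72 CPM in Mettl3 KO and 17.3 ± 15.8 CPM in Mettl14 KO, against 31.9 ± 13.8 CPM in control tumors. It was the 1 called of 6 lymphatic markers tested. The list median was 0.71 in Mettl3 KO and -0.36 in Mettl14 KO. Prox1, the transcription factor that sets lymphatic identity, had 1.05 (adjusted p = 0.285) in Mettl3 KO with all libraries and rose by 2.36 (adjusted p = 0.00191) without control replicate 1, when Flt4, Reln and Mmrn1 were also called higher, 4 of 6 when 36.2% of all genes were. Prox1 averaged 5.52 ± 2.13 CPM in Mettl3 KO, and control libraries ran from 0.417 to 8.27 CPM. Mean CPM in Mettl3 KO and control tumors were 2.55 and 0.965 for Mmrn1, 13.7 and 5.70 for Reln. For Flt4 they were 10.9 and 8.09. The control libraries kept in that fit all had a smaller share of reads outside genes than every Mettl3 KO library. The part of share and knockout in these values cannot be told apart. The chemokine gene Ccl21a had 0 CPM in each group. Cd163, a scavenger receptor of macrophages, also fell by 1.499 in Mettl3 KO (SE 0.20, adjusted p = 0.0102), the 1 of 10 macrophage markers called, with 14.3 ± 3.07 CPM in Mettl3 KO and 36.5 ± 12.4 CPM in Mettl14 KO, against 38.7 ± 8.94 CPM in control tumors. Beside the Lyve1 value, the summed lymphatic markers were 53.2 to 76.8 CPM in Mettl3 KO, 48.4 to 104 CPM in Mettl14 KO, and 48.3 to 100.1 CPM in control libraries. The summed macrophage markers were 1154 to 2907 CPM, 1699.7 to 4601 CPM and 1182 to 2381 CPM in the same groups. The part of either cell type in the Lyve1 value was not tested. With all libraries, the Lyve1 call was lost with RLE scaling, library totals, the share of reads outside genes as a covariate and all 15 libraries in 1 fit (adjusted p 0.0527 to 0.138). It was also lost when Mettl3 KO replicate 1, 3, 4 or 5, or control replicate 2, 4 or 5, was left out (adjusted p 0.0996 to 0.153, log2 fold change -2.08 to -1.78), and the Cd163 call without Mettl3 KO replicate 4 or control replicate 2 (adjusted p 0.0531 to 0.0535). Cd163 and Mrc1 were called lower and Fcgr1 higher of the 10 macrophage markers in Mettl3 KO without control replicate 1. In that fit 15.4% of all genes were called lower and 36.2% higher. With all libraries the median of the macrophage markers was 0.06 in Mettl3 KO and 0.48 in Mettl14 KO.

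Among pericyte and smooth muscle markers, which wrap vessels, 9 of 10 could be tested and 0 were called in either knockout (medians -0.40 and -0.24). In Mettl3 KO and Mettl14 KO 4 and 3 had an unadjusted p under 0.05. DESeq2 called 2 in each, when it called 12.6% and 2.34% of all genes. Without control replicate 1, in the fits whose shares over all genes are given above, Rgs5, Mcam, Abcc9 and Kcnj8 were called lower and Myh11 higher in Mettl3 KO, and Abcc9 and Kcnj8 lower and Myh11 higher in Mettl14 KO. Rgs5, a pericyte marker, had 51.8 ± 15.1 CPM in Mettl3 KO and 62.6 ± 14.0 CPM in Mettl14 KO, against 80.1 ± 22.8 CPM in control tumors, with fold changes of -0.68 (adjusted p = 0.0743) and -0.39 (adjusted p = 0.464). Pdgfrb, the PDGF receptor of pericytes, had -0.37 (adjusted p = 0.351) and -0.30 (adjusted p = 0.721). Of the red cell genes, Hbb-bs fell by 2.62 (adjusted p = 0.0349), Hbb-bt fell by 2.74 (adjusted p = 0.0485) and Hba-a1 fell by 2.16 (adjusted p = 0.0463) in Mettl3 KO, 3 of 6 erythroid markers and near-identical globin copies whose reads may be split. Slc4a1, the anion exchanger of red cells, had 0.84 (adjusted p = 0.214). The calls of Hbb-bt and Hba-a1 were lost with RLE scaling, library totals, the covariate and all 15 libraries in 1 fit (adjusted p 0.0531 to 0.266) and without any 1 library other than control replicate 1 (0.0519 to 0.229). That of Hbb-bs was lost with the covariate (adjusted p = 0.199) and without any 1 library other than control replicate 1 or Mettl3 KO replicate 2 (0.0505 to 0.113). The erythroid sum was 31.6 to 64.8 CPM in Mettl3 KO, 31.4 to 63.6 CPM in Mettl14 KO, and 69.6 to 302 CPM in control libraries, and the part of blood content in the endothelial values was not tested. Without control replicate 1, 5 of 6 erythroid markers were called lower and Slc4a1 higher (1.37, adjusted p = 0.0114) in Mettl3 KO, when 15.4% of all genes were called lower and 36.2% higher. In Mettl14 KO 4 of 6 were called lower, when 2.00% of all genes were. T cell markers had 0 of 8 called in either knockout, with medians of 1.48 and 1.54. Their sums were 52.9 to 178 CPM in Mettl3 KO, 31.2 to 258 CPM in Mettl14 KO, and 12.4 to 44.6 CPM in control libraries. Without control replicate 1, 8 of 8 were called higher in Mettl3 KO and 2 of 8 in Mettl14 KO. In those fits 36.2% and 2.86% of all genes were called higher. With all libraries 8 and 6 had an unadjusted p under 0.05. DESeq2 called 5 and 4, when it called 12.6% and 2.34% of all genes. Cd8a, the coreceptor of cytotoxic T cells, had 1.70 (adjusted p = 0.0544) in Mettl3 KO and 2.07 (adjusted p = 0.267) in Mettl14 KO, and Cd3g, a chain of the T cell receptor complex, had 1.43 (adjusted p = 0.0646) and 1.47 (adjusted p = 0.352).

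The rest of the tumor showed few calls on these lists. Krt20, an intestinal keratin, fell by 1.76 in Mettl3 KO (SE 0.28, adjusted p = 0.0217), the 1 of 6 epithelial carcinoma markers called. It had 57.7 ± 27.3 CPM in Mettl3 KO and 103 ± 35.0 CPM in Mettl14 KO, against 187 ± 23.7 CPM in control tumors. Epcam averaged 3.45, 1.03 and 1.45 CPM in these groups. The median of the 6 markers was 0.46 in Mettl3 KO and -0.50 in Mettl14 KO, against -0.14 and -0.09 over all genes. The Krt20 call was lost with the covariate and with library totals (adjusted p 0.0568 to 0.0732), and without Mettl3 KO replicate 1, 2 or 3 or control replicate 2, 3, 4 or 5 (0.0519 to 0.0849). When control replicate 1 was left out, Krt20 was called lower and Epcam and Cdh1 higher in Mettl3 KO, and Krt20 was called lower in Mettl14 KO (-0.91, adjusted p = 0.0440). Fibroblast, skeletal muscle and adipocyte markers had 0 calls in either knockout, while DESeq2 called 6 of 6 skeletal muscle markers in Mettl14 KO, when it called 2.34% of all genes. In Mettl14 KO 2 of 6 fibroblast and 6 of 6 skeletal muscle markers had an unadjusted p under 0.05, and in Mettl3 KO 0 did. With control replicate 1 left out, 4 of 6 skeletal muscle markers were called lower in Mettl14 KO and 4 of 5 adipocyte markers higher in Mettl3 KO, when 2.00% of all genes were called lower in Mettl14 KO and 36.2% higher in Mettl3 KO. Skeletal muscle sums spread widely, from 27.1 to 685 CPM in Mettl3 KO, 4.54 to 35.4 CPM in Mettl14 KO, and 25.5 to 285 CPM in control libraries, and the part of muscle in the endothelial values was not tested. Of the most abundant genes on these lists, the collagen genes Col1a2 and Col3a1 had fold changes of -0.01 and 0.32 in Mettl3 KO and 0.61 and 1.01 in Mettl14 KO. The muscle genes Myh4 and Acta1 had 0.39 and 0.11 in Mettl3 KO and -4.15 and -4.42 in Mettl14 KO, and the lipid droplet genes Plin4 and Plin1 had -0.03 and 0.94 in Mettl3 KO and 0.01 and 0.08 in Mettl14 KO. None of these 6 passed with all libraries (lowest adjusted p = 0.130, Acta1 in Mettl14 KO).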

How the data were processed

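RNA-seq was deposited for 15 tumor samples, and 12 samples of m6A immunoprecipitation and input in the same series were not analysed here. Per the labels' protocols, tumor RNA was poly(A)-selected, with ribosomal depletion also mentioned, and read as single 75-nucleotide reads. Per the submitters' processing notes, cutadapt 1.18, HISAT2 2.1.0, HTSeq 0.11.2 and DESeq2 were used, with the mm10 build. For the annotation release and strand, the setting is not given in the sources used here. Raw gene counts were deposited in 1 table per knockout. The 5 control columns are identical in both tables and were used once. Lines for reads assigned to no gene, ambiguous, multiply aligned or unaligned held 56.8% to 86.2% of all reads and stayed out of library sizes and tests. The authors also deposited log2 fold changes and p-values, raw and adjusted, of both knockouts, printed only where their table is named.

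Groups follow the titles. For the Mettl14 samples, another label field gives the genotype as Mettl4. The 30 pairs of replicates within groups differed beyond sampling noise (smallest chi-square per gene 9.14).

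Counts were fitted with edgeR 4.0.16 (TMM, filterByExpr with a minimum count of 10, robust quasi-likelihood, Benjamini-Hochberg at 0.05), on the 10 libraries of each comparison with control and on all 15 between knockouts. The scripts were tested on simulated data. Of 200 genes drawn at random and changed by 1 on the log2 scale, 15% were called in Mettl3 KO against control and 19% in Mettl14 KO. With a change of 2, 56.5% and 67.5% were called. A gene that was not called may therefore still differ. Levels are TMM-scaled CPM over the 15 libraries, exon lengths and positions come from GENCODE M21, and likeness was computed on log2(CPM + 0.5). Alternatives were DESeq2 1.42.0, limma 3.58.1 with cyclic loess, RLE scaling, library totals, no filter, the share of reads outside genes as a covariate, a replicate block, all libraries in 1 fit and each library left out. The slope on that share and the fits without control replicate 1 under cyclic loess were chosen after the data were seen.

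The members and the 17 lists (143 genes) were chosen with earlier results of these data known. Genes named are the 10 members, the genes called on each list or else its 2 most abundant, and the 10 genes most like the members with a mean of at least 5 CPM. Prox1, Ccl21a, Epcam, Gp1bb, Ppbp and genes called only without control replicate 1 were picked after values were seen. Promoter sequences are from RefSeq (GRCm38.p6), where 6 of the 10 members matched by symbol. Pecam1, Cdh5, Vwf and Plvap were not matched.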

Additional observations from a re-analysis of the deposited data

How the results depend on the processing

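The fold changes of the members kept their direction and their side of the threshold in 485 of the 560 values recomputed under the alternatives over the 3 comparisons, changed sign in 67 and newly passed in 9, of which 1 (Flt1) also changed sign. In Mettl3 KO against control, 0 members were called with all libraries and edgeR, 1 with DESeq2 (Vwf), 2 with the replicate block (Cdh5 and Vwf), 3 with cyclic loess and no control replicate 1 (Flt1, Eng and Vwf), and 0 to 2 when a library was left out, the 2 without control replicate 1. Over all genes in that comparison, edgeR called 1.24%, DESeq2 12.6% and the edgeR fit without control replicate 1 51.6%. The replicate block called 1891 higher and 4111 lower of 21427 genes. Cyclic loess without control replicate 1 called 2747 higher and 2887 lower of 22535. In Mettl14 KO against control the number of members called was 0 to 1 with a library left out, the 1 again without control replicate 1 (4.86% of all genes), and in Mettl3 KO against Mettl14 KO it was 0 under every alternative run. The median of the members in Mettl3 KO against control, -0.15, moved to 0.0777 with the share of reads outside genes as a covariate, 0.21 with cyclic loess and 0.17 with cyclic loess and no control replicate 1. In Mettl3 KO against Mettl14 KO, -0.18 moved to 0.14 with the covariate and 0.11 with cyclic loess. The cause was not tested.

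In Mettl3 KO against control, cyclic loess gave Pecam1 0.18, Kdr 0.33, Flt1 0.33 and Plvap 0.24. Without control replicate 1 it gave Pecam1 0.20, Kdr 0.34, Flt1 0.45, Plvap 0.14 and Tek -0.0014. Each was of the opposite sign to its value with TMM and all libraries. TMM without control replicate 1 also put Kdr (0.0485) and Flt1 (0.0711) above 0. Kdr also changed sign with DESeq2 (0.0110), RLE scaling (0.0110), the covariate (0.20) and library totals (0.0862), Flt1 with library totals (0.0160), Plvap with the covariate (0.31) and library totals (0.0066), and Tek with no filter (-0.15). With a library left out, Kdr ran from -0.13 to 0.20, Flt1 from -0.15 to 0.0711 and Plvap from -0.27 to 0.16. In Mettl14 KO against control, Pecam1 was -0.0075 with the replicate block and Tek 0.0011 with the covariate and 0.13 with library totals. With a library left out, Pecam1 ran from -0.15 to 0.14, Tek from -0.12 to 0.0404 and Plvap from -0.0650 to 0.29. In Mettl3 KO against Mettl14 KO, 7 members below 0 with TMM were above 0 with cyclic loess (Pecam1 0.0898, Cdh5 0.0828, Kdr 0.149, Flt1 0.109, Tie1 0.161, Eng 0.0432 and Plvap 0.0667), and 5 with the covariate (Cdh5 0.154, Kdr 0.101, Tie1 0.198, Eng 0.122 and Plvap 0.135). There Tek was -0.0623 and Emcn -0.0554 with no filter, and Tie1 0.0161 with the 10 knockout libraries alone. With a library left out, Kdr ran from -0.31 to 0.0119, Tie1 from -0.19 to 0.14, Emcn from -0.0321 to 0.38 and Plvap from -0.33 to 0.0124.

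Replicate numbers are shared between groups, but same-numbered libraries did not deviate together (correlations of their deviations from -0.75 to 0.62), so the replicate block is only an alternative; it raised calls over all genes in Mettl3 KO against control to 1891 higher and 4111 lower, from 87 and 179. The same counts were 8162 and 3463 without control replicate 1, 492 and 2208 with DESeq2, and 300 and 91 with cyclic loess. In Mettl14 KO against control, 0 genes were called with edgeR, 324 higher and 181 lower with DESeq2, and 621 and 433 without control replicate 1. RLE scaling gave 72 higher and 28 lower genes in Mettl3 KO against control, library totals 106 and 16, no filter 32 and 30, the covariate 38 and 17, and all 15 libraries in 1 fit 17 and 25. Depth limits Tek and Vwf most, at 32 to 142 and 29 to 194 reads per library.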
